A study of Mus musculus with 6 samples.

Results

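The EGF receptor family was examined in mouse liver through 10 genes chosen by name: the receptors Egfr, Erbb2 and Erbb3, the ligands Tgfa, Hbegf, Egf, Ereg, Areg and Btc, and the feedback inhibitor Errfi1. All 10 were found among the 55536 genes of the deposited table, and 9 of them had enough counts to be tested, Areg being the exception. RNA sequencing had been done on 3 livers with the gene for SIRT5, a mitochondrial deacylase (Sirt5+/+), and 3 livers without it (Sirt5-/-), from male C57BL/6 mice. Mice of both genotypes had been injected at 4 weeks of age with 50 µg of the piggyBac plasmid PB[CMV-myc-YAP5SA]DS, which carries myc-tagged YAP5SA behind a CMV promoter, and 10 µg of the transposase plasmid Act-PBase, and livers were taken 20 days later. YAP5SA is an active form of YAP, the transcriptional co-activator of the Hippo pathway. Hydrodynamic injection carries plasmids into part of the hepatocytes, so each sample of whole liver mixes hepatocytes with and without the plasmid and other cell types. All 6 livers carried YAP5SA, so every comparison below is of Sirt5 genotype within that setting. Nothing in the labels states that each liver is from a separate animal. The p-values therefore cover the spread among these 6 samples, part of which may be technical.

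Receptors of this family are cell-surface tyrosine kinases that pair when a ligand binds. EGFR binds the 6 ligands listed here, ERBB3 binds neuregulins and signals mainly through its partners because its own kinase is weak, and ERBB2 has no known ligand and serves as a partner. The ligands are made as membrane-anchored precursors and are released by ADAM proteases, and the signal runs through RAS and ERK kinases and through PI3 kinase. ERRFI1, also called MIG6, is induced by this signal and binds and inhibits the receptor kinases. In the liver EGFR is known as an abundant hepatocyte receptor that takes part in regeneration, and Areg and other ligand genes are known targets of YAP in several cell types.

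The transcripts of Egfr differ in a way that bears on its measured level, so the point where they part is shown first. Egfr (ENSMUSG00000020122) lies on chromosome 11, 16752203 to 16918158, plus strand, GRCm38. Its transcript Egfr-201 has 28 exons and encodes the full receptor, while Egfr-202 has 16 exons and runs on past the end of exon 16 of Egfr-201 to a stop codon at 16887226 to 16887228, before the exons of the kinase domain. Both sequences below are coding sequence read 5′ to 3′. The lower-case letters are the 45 bases they share, chr11:16887141-16887185, and the capitals are the 43 bases after that point, which in Egfr-201 come from the following exons and in Egfr-202 from the read-through up to its stop codon.
Egfr-201: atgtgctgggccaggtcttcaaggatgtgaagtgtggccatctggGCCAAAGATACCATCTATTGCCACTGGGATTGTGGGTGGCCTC
Egfr-202: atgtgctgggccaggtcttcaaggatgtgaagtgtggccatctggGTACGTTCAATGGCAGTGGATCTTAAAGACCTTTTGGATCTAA

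Upstream sequence for 7 of the 10 members was taken from the RefSeq promoter table of GRCm38.p6. These were Egf, Errfi1, Areg, Btc, Tgfa, Egfr and Erbb2. The other members, Hbegf, Erbb3 and Ereg, were not searched, so their motifs are not known here. The 250 bases before each annotated start were searched on both strands for GGAATG, the motif of the TEAD factors through which YAP acts, for TGANTCA, the AP-1 motif, and for TGACGTCA, the cyclic AMP response element. These occur in 12.6%, 6.75% and 1.55% of all 32851 upstream windows of that length in the table. Among the 7 members searched, GGAATG or its reverse complement CATTCC occurred at Erbb2 (first base at -88 from the start). It also occurred at the first of 2 starts of Errfi1 (first base at -65). TGACGTCA occurred at the other Errfi1 start (first base at -51) and at Areg (first base at -61), and no window held TGANTCA. The windows of Erbb2, Errfi1 and Egfr are printed because Erbb2 and Errfi1 hold the motif and changed in opposite directions, while Egfr changed and holds none. Capitals mark the motif, and a match describes the letters only.
Erbb2, chr11:98412234-98412483, plus strand: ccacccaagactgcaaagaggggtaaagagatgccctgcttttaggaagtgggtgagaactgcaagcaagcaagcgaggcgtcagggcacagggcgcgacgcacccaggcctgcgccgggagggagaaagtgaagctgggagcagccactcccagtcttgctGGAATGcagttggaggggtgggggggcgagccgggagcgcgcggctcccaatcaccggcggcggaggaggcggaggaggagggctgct
Errfi1, chr4:150853546-150853795, plus strand: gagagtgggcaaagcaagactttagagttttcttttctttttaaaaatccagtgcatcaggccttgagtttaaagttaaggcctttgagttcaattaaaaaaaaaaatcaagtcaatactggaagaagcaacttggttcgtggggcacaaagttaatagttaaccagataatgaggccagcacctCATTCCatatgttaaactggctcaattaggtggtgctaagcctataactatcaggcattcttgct
Egfr, chr11:16751953-16752202, plus strand: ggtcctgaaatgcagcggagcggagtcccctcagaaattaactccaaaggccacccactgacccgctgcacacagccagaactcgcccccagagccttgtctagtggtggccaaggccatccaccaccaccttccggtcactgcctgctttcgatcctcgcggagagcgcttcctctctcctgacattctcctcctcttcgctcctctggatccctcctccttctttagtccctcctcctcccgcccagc

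The libraries held 19307808 to 24330797 estimated counts, and Sirt5 itself matched its labels, with 12.6 to 16.7 CPM (counts scaled to a common library size) in Sirt5+/+ and 0.497 to 1.2 CPM in Sirt5-/- livers. Between 6.58 and 46.4% of counts came from mitochondrially encoded genes, and the libraries richest in them, Sirt5+/+ replicate 3 (46.4%) and Sirt5-/- replicate 1 (40.8%), stood apart from the others of their genotype. The scaling uses TMM factors, which set the typical gene equal between libraries, and 3 counts equal 0.0827 to 0.393 CPM. Scaling by library totals instead moved the median log2 difference of all genes from -0.08 to 0.60 and put 88.2% of called genes on the higher side, against 50.5%, so directions are relative to the typical gene. The liver label fits the markers, since 14 hepatocyte genes such as Alb summed to 100304 to 142760 CPM in Sirt5+/+ and 23219 to 42625 CPM in Sirt5-/- livers with none at 0, and 12 of the 14 fell. In bulk tissue, fewer cells of a type and less RNA per cell cannot be told apart. Summed levels of some other cell types were higher in every Sirt5-/- liver, with 10 bile duct markers at 92.7 to 405 against 762 to 845 CPM, 10 macrophage and monocyte markers at 312 to 400 against 1077 to 2118 CPM, and 10 stellate cell and fibroblast markers at 426 to 696 against 2152 to 2352 CPM. Those of 10 endothelial markers were lower, at 175 to 253 against 159 to 169 CPM.

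The family shifted in composition rather than in one direction. Livers without Sirt5 had less RNA of Egfr, Erbb3 and Errfi1, and more of Erbb2, Hbegf and Egf. Of the 9 tested members 3 rose and 3 fell at an adjusted p under 0.05 (edgeR quasi-likelihood test), while Ereg, Tgfa and Btc did not pass. Among all 14801 genes tested, 34.5% passed (17.4% higher and 17.1% lower in Sirt5-/-), and the median log2 difference of the 9 members was -0.95 against -0.08 for all genes. That median is the value of Tgfa, which did not pass, and the members lie on both sides of 0, so it does not describe a shift of the family. The livers of the genotypes did not overlap in 7 of the 9 members, against 49.8% of all genes tested.

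**Figure D1:**
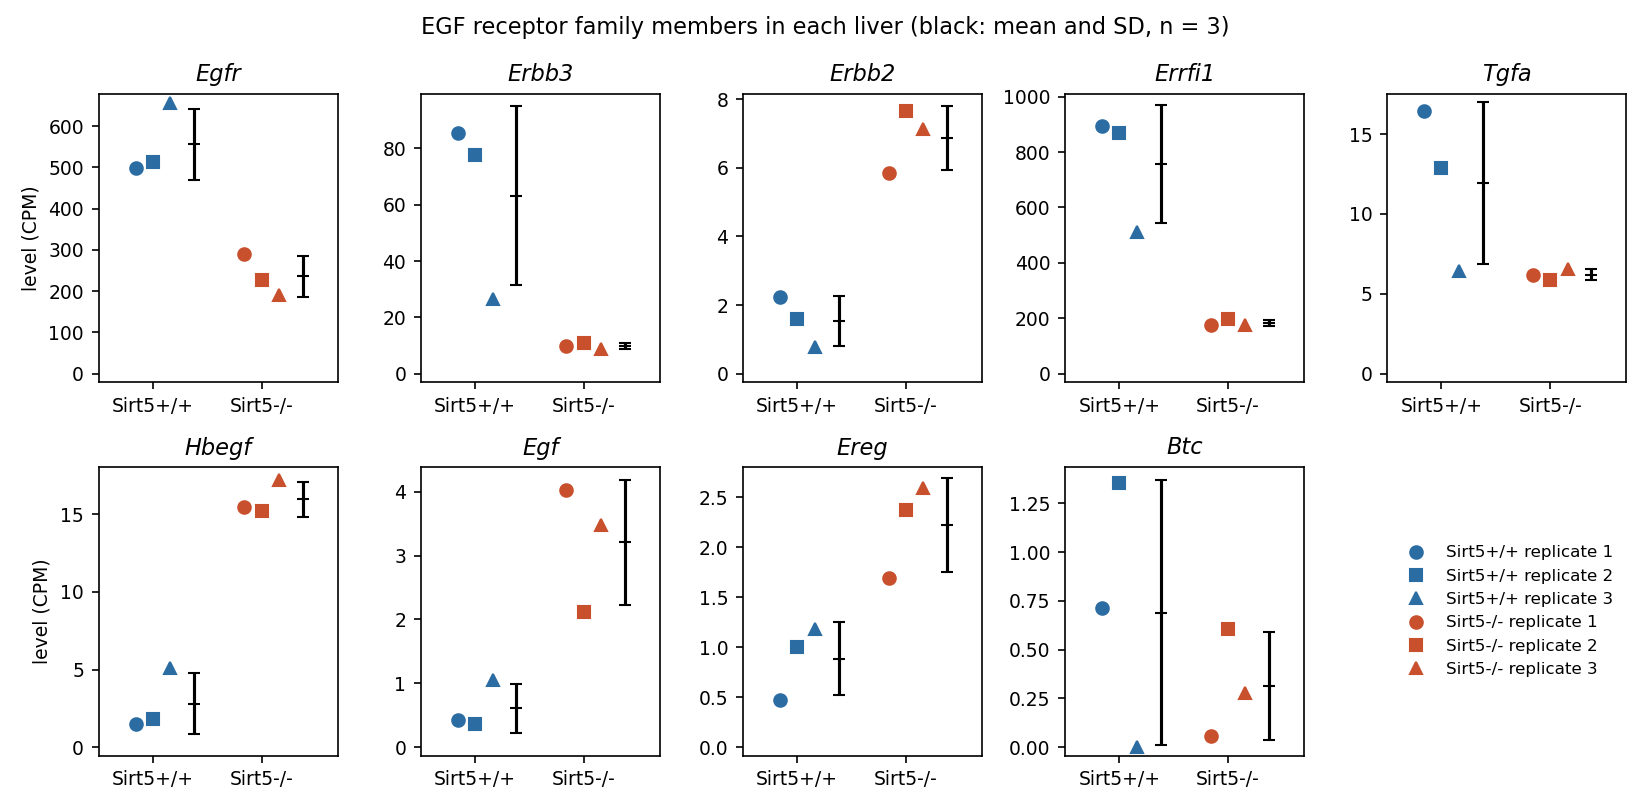
Levels of the 9 tested members in CPM (vertical axes, each with its own scale) in the 3 Sirt5+/+ livers (blue) and the 3 Sirt5-/- livers (orange), with symbols for replicates 1 to 3 and black bars for the mean and SD. Egfr, Erbb3 and Errfi1 are lower and Erbb2, Hbegf and Egf higher in every Sirt5-/- liver than in any Sirt5+/+ liver, while Tgfa and Btc overlap.

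Among the receptors, Egfr stood at 499, 513 and 655 CPM in Sirt5+/+ replicates 1 to 3 and at 290, 227 and 192 CPM in Sirt5-/- replicates 1 to 3. The genotypes did not overlap, and the highest value was that of Sirt5+/+ replicate 3, the library richest in mitochondrial counts. Egfr fell from a mean of 556 ± 86.5 to 237 ± 49.9 CPM (SD, n = 3), a log2 change of -1.23 ± 0.32 (SE; edgeR, adjusted p = 0.0192). The call ended without Sirt5-/- replicate 2 (adjusted p = 0.116) or replicate 3 (0.103), and with library totals, where the log2 change was -0.59 (adjusted p = 0.615) beside a median of 0.60 for all genes. By the rule used for likeness, the genes whose log2 CPM followed that of Egfr most closely over the 6 livers were Lman1, a cargo receptor of the secretory pathway, Tmem42 and 4931406C07Rik, at Euclidean distances of 0.07, 0.10 and 0.15 log2 units among 13240 candidates.

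Erbb3 (chromosome 10, 128567523 to 128589652, minus strand), the neuregulin receptor, was lower as well. Its level was 85.5, 77.6 and 26.7 CPM in the Sirt5+/+ livers and 9.80, 10.8 and 8.81 CPM in the Sirt5-/- livers. Sirt5+/+ replicate 3 lay between its own group and the Sirt5-/- livers, but still above all 3 of them. Erbb3 fell from 63.3 ± 31.9 to 9.81 ± 1.01 CPM (SD, n = 3), a log2 change of -2.69 ± 0.43 (SE; edgeR, adjusted p = 0.00320), and passed in all 18 alternative settings run for it. Relative to Egfr in the same library, there were 17.2, 15.1 and 4.08 Erbb3 counts for each 100 of Egfr in Sirt5+/+ and 3.38, 4.76 and 4.59 in Sirt5-/- livers. This ratio overlapped between genotypes, with Sirt5+/+ replicate 3 as low as the Sirt5-/- livers.

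Erbb2 (chromosome 11, 98412470 to 98437716, plus strand), the partner without a ligand, moved the other way from a low level. It stood at 2.23, 1.61 and 0.786 CPM in the Sirt5+/+ livers and at 5.83, 7.66 and 7.12 CPM in the Sirt5-/- livers, so the lowest Sirt5-/- value was above the highest Sirt5+/+ value. Erbb2 rose from 1.54 ± 0.724 to 6.87 ± 0.940 CPM (SD, n = 3), a log2 change of 2.1 ± 0.40 (SE; edgeR, adjusted p = 0.00540), and passed in all 18 alternative settings run for it. Mien1 lies on the opposite strand and overlaps Erbb2, and whether counting used strand is not given in the sources used here. The same limit holds for Egfr (overlapped by Egfros), Errfi1 (1700045H11Rik), Ereg (Gm19610) and Tgfa (Gm43917), and for Egf, described below. Some pathway genes named below, such as Ccnd1 and Spry1, are overlapped on the opposite strand too. Bile duct markers also rose in part (3 of 9 tested or 33.3%, against 17.4% of all genes, none lower). Their summed levels are given above, and their part in the Erbb2 result was not tested.

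Compared per length, with the deposited TPM (transcript abundance per length) of each library, Egfr, all its transcripts together, made up most of the receptor RNA throughout. Of the summed TPM of Egfr, Erbb2 and Erbb3, Egfr held 88.7, 87.4 and 91.2% in Sirt5+/+ and 95.1, 93.5 and 93.4% in Sirt5-/- livers. The share of Erbb3 was 10.9, 12.3 and 8.64% in Sirt5+/+ against 2.83, 3.51 and 3.33% in Sirt5-/- livers, while that of Erbb2 was 0.346, 0.296 and 0.135% against 2.06, 3.00 and 3.25%. None of these shares overlapped between genotypes, and in Sirt5-/- replicate 3 Erbb2 and Erbb3 were close to equal. The TPM of Erbb3 in Sirt5+/+ replicate 3 is uncertain, because its counts and TPM imply a transcript of 3038 bases, against 5798 to 6034 bases in the other 5 libraries and 6016 bases in the annotation. With Erbb3 rescaled to its annotated length, an alternative chosen after seeing the data, Sirt5+/+ replicate 3 had 95.3% Egfr and 4.56% Erbb3, so the Egfr share then overlapped between genotypes while those of Erbb3 and Erbb2 still did not.

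The mean length of the Egfr transcripts behind these counts can be read from counts and TPM together. It came to 4377, 5437 and 6810 bases in Sirt5+/+ replicates 1 to 3 and 5351, 4782 and 4713 bases in Sirt5-/- replicates 1 to 3. These lie between the 2943 bases of Egfr-202 and the 10208 bases of Egfr-201, and the genotypes overlapped. If the 2 transcripts printed above were the only ones, Egfr-202 would make up 80.3, 65.7 and 46.8% of Egfr molecules in Sirt5+/+ and 66.9, 74.7 and 75.6% in Sirt5-/- livers. Egfr-201 would then have 23.3, 41.5 and 14.4 TPM in Sirt5+/+ and 11.8, 15.4 and 14.6 TPM in Sirt5-/- livers. For Erbb3 the TPM were 14.5, 17.1 and 2.57 in Sirt5+/+ and 1.06, 2.28 and 2.13 in Sirt5-/- livers. In each liver Egfr-201 alone would thus be above Erbb3. The receptor shares and the fall of Egfr given above count all its transcripts together. These transcript values are estimates, since the transcript set of the authors' quantification is not given in the sources used here. Of genes with 1 annotated transcript, 79.0 to 88.7% per library had an implied length within 10% of the annotated one. The lowest share was that of Sirt5+/+ replicate 3. The same genes set the length scale, so these shares are not an independent check.

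**Figure D2:**
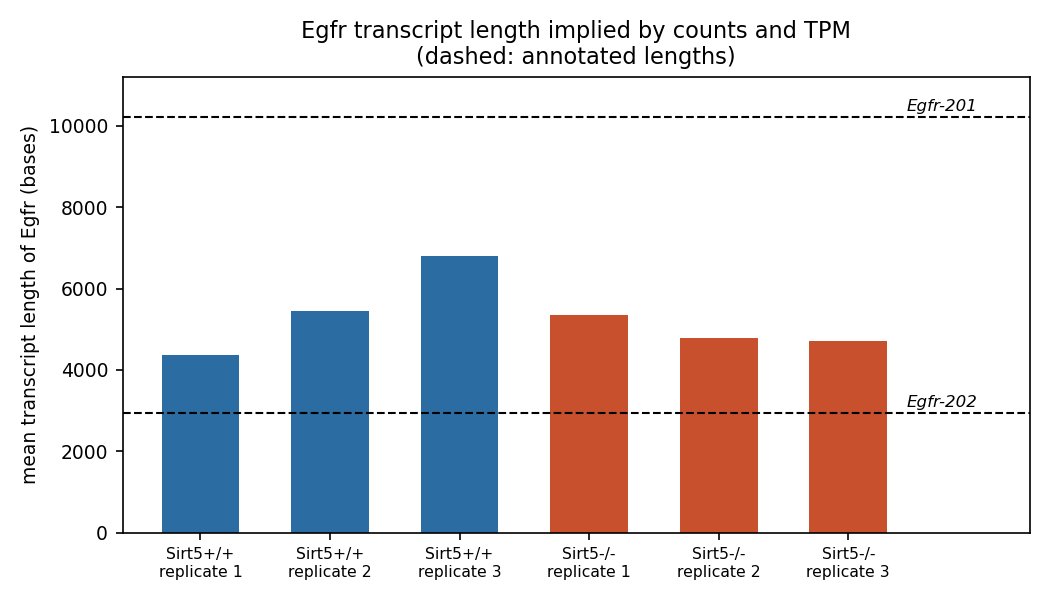
Mean transcript length of Egfr in bases (vertical axis, from 0) implied by counts and TPM in each of the 6 livers (bars, blue for Sirt5+/+ and orange for Sirt5-/-), with the annotated lengths of Egfr-201 and Egfr-202 as dashed lines. All 6 bars lie between the lines, from 4377 to 6810 bases, and the genotypes overlap.

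Of the ligands, Hbegf and Egf rose. Hbegf (chromosome 18, 36504927 to 36515805, minus strand) encodes heparin-binding EGF-like growth factor, a ligand of EGFR and ERBB4. It was measured at 1.52, 1.82 and 5.11 CPM in the Sirt5+/+ livers and at 15.5, 15.2 and 17.2 CPM in the Sirt5-/- livers. The Sirt5-/- livers were close to each other and all above Sirt5+/+ replicate 3, the highest of its genotype. Hbegf rose from 2.82 ± 1.99 to 15.96 ± 1.11 CPM (SD, n = 3), a log2 change of 2.60 ± 0.45 (SE; edgeR, adjusted p = 0.00409), which was 3.30 without Sirt5+/+ replicate 3 and 3.50 with library totals. It passed in all 18 alternative settings run for it.

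Egf (chromosome 3, 129677565 to 129755316, minus strand), the founding ligand, is best known from kidney and salivary gland, and its level here was low. Its counts were 9, 10 and 8 in Sirt5+/+ against 69, 77 and 126 in Sirt5-/- livers, which correspond to 0.427, 0.357 and 1.05 CPM and to 4.03, 2.12 and 3.48 CPM. The groups did not overlap, although each Sirt5+/+ value rests on few counts. Egf rose from 0.611 ± 0.380 to 3.21 ± 0.980 CPM (SD, n = 3), a log2 change of 2.53 ± 0.54 (SE; edgeR, adjusted p = 0.00873), which was 3.28 with library totals. It is uncertain in that 9.58% of its 31-base words also occur in other genes. Overlapping genes are 6330410L21Rik, Gm42650 and Gm42697 on the opposite strand and Gm24515 on the same strand. Counts and TPM imply a mean length of 3032 bases in Sirt5-/- replicate 3, the only library with enough TPM for this estimate. The coding transcripts Egf-201, Egf-202 and Egf-209 have 4761, 3346 and 3211 bases, so which transcripts rose is not known.

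Tgfa (chromosome 6, 86195223 to 86275719, plus strand), transforming growth factor alpha, a ligand made by hepatocytes in regeneration, split the Sirt5+/+ livers. Its levels there were 16.4, 12.9 and 6.42 CPM, against 6.18, 5.87 and 6.54 CPM in the Sirt5-/- livers. Sirt5+/+ replicate 3 was within the Sirt5-/- range and the other Sirt5+/+ livers were above it. The log2 difference of -0.95 ± 0.34 (SE) did not pass (edgeR, adjusted p = 0.0612). It passed without Sirt5+/+ replicate 3 (-1.19, adjusted p = 0.00207). In the authors' deposited table its adjusted p was 0.0486, but the table's own column does not mark it as significant.

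Ereg (chromosome 5, 91074622 to 91093646, plus strand), encoding epiregulin, had 0.474, 1.00 and 1.18 CPM in the Sirt5+/+ livers and 1.69, 2.37 and 2.60 CPM in the Sirt5-/- livers. The groups did not overlap, and the nearest livers were Sirt5+/+ replicate 3 and Sirt5-/- replicate 1. The log2 difference of 1.37 ± 0.48 (SE) did not pass (edgeR, adjusted p = 0.0571), while it passed in 7 of 17 alternative settings, among them without Sirt5+/+ replicate 3 (1.63, adjusted p = 0.0207) and in the authors' deposited table (adjusted p = 0.0192). Areg and Btc lie beside Ereg on chromosome 5. Btc, betacellulin (91357261 to 91402994, minus strand), had 15, 38 and 0 counts in Sirt5+/+ and 1, 22 and 10 counts in Sirt5-/- libraries, with overlap between genotypes (log2 difference -1.18 ± 0.98 SE, edgeR, adjusted p = 0.386). Areg, amphiregulin (91139599 to 91148432, plus strand), had 0, 0 and 4 counts in Sirt5+/+ and 2, 2 and 0 counts in Sirt5-/- libraries, so no difference was detectable at this depth, and no genes of like pattern were sought for it.

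As a group the ligands changed in make-up. Their summed TPM was 5.06, 6.18 and 1.41 in Sirt5+/+ and 6.74, 12.2 and 16.1 in Sirt5-/- livers, which did not overlap. The summed TPM of the 3 receptors was 133, 138 and 29.7 against 37.41, 65.03 and 64.05, which overlapped. In each genotype the lowest sum came from the library richest in mitochondrial counts, so the sums are uncertain between genotypes. Hbegf made up 13.8, 21.8 and 45.4% of the ligand sum in Sirt5+/+ and 66.8, 70.1 and 69.3% in Sirt5-/- livers. The share of Tgfa was 74.1, 59.5 and 29.1% in Sirt5+/+ against 13.4, 13.7 and 13.4% in Sirt5-/- livers. Tgfa was thus the most abundant ligand RNA in Sirt5+/+ replicates 1 and 2, and Hbegf in Sirt5+/+ replicate 3 and in all 3 Sirt5-/- livers. In each liver the 6 ligands together stayed below Egfr, which had 27.1 to 121 TPM in Sirt5+/+ and 35.6 to 60.8 TPM in Sirt5-/- livers.

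Errfi1 (chromosome 4, 150853919 to 150868892, plus strand), the inhibitor of the receptor kinases, had the highest TPM of the 10 members in all 6 livers. Its level was 892, 869 and 511 CPM in the Sirt5+/+ livers and 177, 197 and 175 CPM in the Sirt5-/- livers. All 3 Sirt5-/- livers were close together and far below Sirt5+/+ replicate 3, the lowest of its genotype. Errfi1 fell by 2.05 ± 0.35 on the log2 scale (SE; edgeR, adjusted p = 0.00393), from 758 ± 214 to 183 ± 12.5 CPM (SD, n = 3). The call ended with library totals, where the log2 change was -1.52 (adjusted p = 0.116). There were 179, 169 and 78.0 Errfi1 counts for each 100 of Egfr in Sirt5+/+ and 61.0, 86.9 and 91.0 in Sirt5-/- livers, which overlapped.

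By mean TPM the order in Sirt5+/+ livers was Errfi1 (252 ± 177), Egfr (88.7 ± 53.3), Erbb3 (11.4 ± 7.74), Tgfa (2.61 ± 1.91) and Hbegf (0.897 ± 0.394), followed by Erbb2, Btc, Egf, Ereg and Areg, all at or below 0.303 (SD, n = 3). In Sirt5-/- livers it was Errfi1 (73.6 ± 25.9), Egfr (52.1 ± 14.3), Hbegf (8.07 ± 3.35), Erbb3 (1.82 ± 0.665), Erbb2 (1.6 ± 0.722), Tgfa (1.58 ± 0.635), Egf (1.20 ± 0.462), Ereg (0.647 ± 0.340), Btc (0.140 ± 0.135) and Areg (0.0467 ± 0.0404). Neighbours whose SD ranges meet in Sirt5-/- livers are Errfi1 with Egfr, Erbb3 through Egf, Egf with Ereg, and Btc with Areg. In Sirt5+/+ livers the SD ranges of all neighbours in the order meet, except those of Egfr and Erbb3. Most members had their lowest TPM of a genotype in Sirt5+/+ replicate 3 and Sirt5-/- replicate 1, the libraries richest in mitochondrial counts, so TPM were not compared between genotypes gene by gene.

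Since hepatocyte markers were lower in Sirt5-/- livers, each member was also expressed relative to the mean log2 CPM of the 14 markers in the same liver. That mean was 12.2, 11.9 and 11.5 in Sirt5+/+ and 10.2, 9.98 and 9.56 in Sirt5-/- livers. A gene of unchanged CPM would therefore be higher on this measure in every Sirt5-/- liver. The size and overlap for all genes were not computed on it. On this measure Errfi1 was at -2.42, -2.15 and -2.46 in Sirt5+/+ and at -2.71, -2.35 and -2.12 in Sirt5-/- livers, a difference of -0.05 (exact permutation test, two-sided, p = 1). Egfr differed by 0.71 (exact p = 0.2, adjusted p = 0.3 over the 9 members) and Erbb3 by -0.56 (exact p = 0.3, adjusted p = 0.386), and both overlapped. With 3 livers against 3 no member could reach an adjusted p under 0.05, so these values give sizes and overlap only. Without Sirt5+/+ replicate 3 the differences were 1.04 for Egfr and -0.89 for Erbb3, each at the smallest p possible (exact p = 0.1). Hbegf, Egf, Erbb2 and Ereg were 4.63, 4.29, 4.16 and 3.27 higher and Tgfa was 1.12 higher, each without overlap (exact p = 0.1, the smallest that 3 livers against 3 can give, adjusted p = 0.18). In the edgeR fit the log2 difference of Tgfa had the opposite sign, at -0.95. Btc differed by 1.48 relative to the markers (exact p = 0.4, adjusted p = 0.45) and overlapped.

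**Figure D3:**
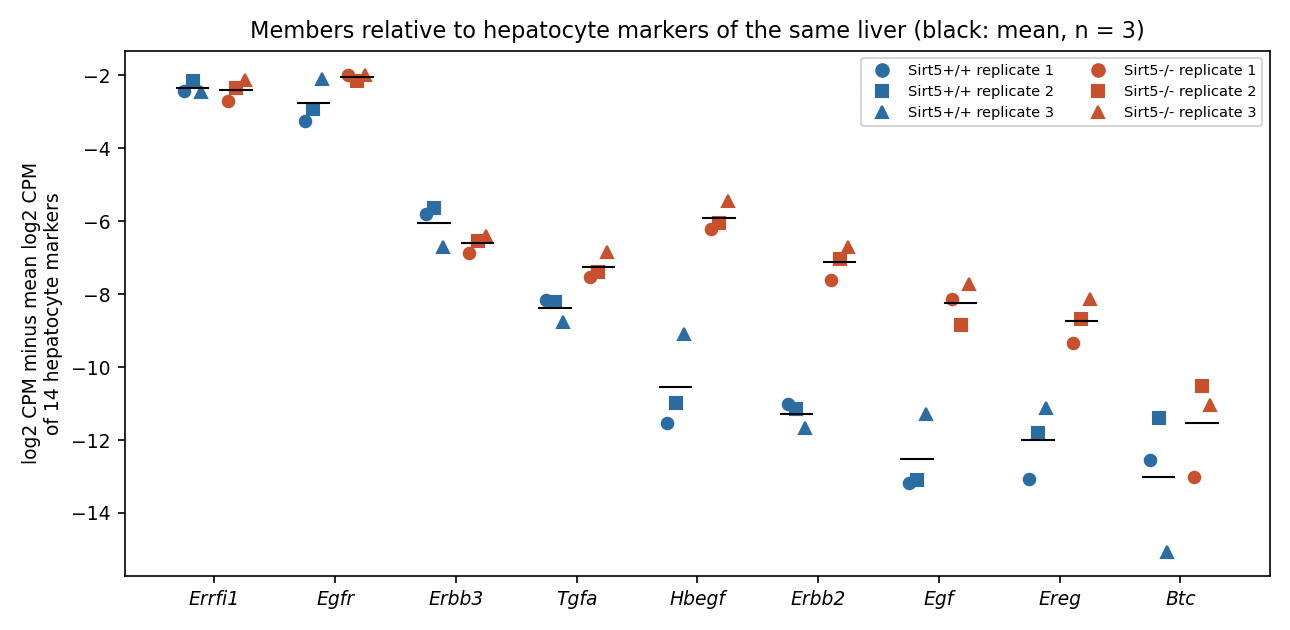
Level of each tested member relative to hepatocyte markers, as log2 CPM minus the mean log2 CPM of 14 markers of the same liver (vertical axis), with blue for Sirt5+/+, orange for Sirt5-/-, symbols for replicates and black lines for means. Errfi1 overlaps between genotypes (difference -0.05), and Hbegf, Erbb2, Egf and Ereg are 3.27 to 4.63 higher in Sirt5-/- livers. The markers themselves are lower in Sirt5-/- livers, which raises every member on this measure.

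Markers of macrophages, stellate cells and T cells were in part higher in the livers where Hbegf, Egf and Erbb2 rose, and endothelial markers were not. Beside the summed levels given above, 6 of 10 tested macrophage and monocyte markers were higher and 1 lower, and 4 of 10 stellate cell and fibroblast markers were higher and 1 lower. Of 8 tested T and NK cell markers 6 were higher (4.39 to 11.1 against 34.5 to 36.4 CPM over 10 markers), with up to 3 markers at 0 counts in a Sirt5+/+ library. Of 10 endothelial markers none was higher and 4 were lower, and of 5 B cell markers 1 was higher. Among all genes tested 17.4% were higher and 17.1% lower. Among Sirt5+/+ livers the bile duct sum was highest, at 405 CPM, in replicate 3, where Hbegf was also highest and Erbb2 lowest. The part of these cell types in the rise of Hbegf, Egf and Erbb2 was not tested.

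The remaining receptor of the family and the other ligands were followed as a list of 6 genes, of which 3 could be tested. Nrg1, neuregulin 1, a ligand of ERBB3 and ERBB4, had 1.23, 0.50 and 1.83 CPM in Sirt5+/+ and 12.7, 7.55 and 10.9 CPM in Sirt5-/- livers. It rose by 3.22 ± 0.48 on the log2 scale (SE; edgeR, adjusted p = 0.00263), with every Sirt5-/- liver above every Sirt5+/+ liver. Nrg1 and its receptor gene Erbb3 thus differed in opposite directions. Nrg4, a neuregulin that binds ERBB4, differed by -1.16 ± 0.42 (SE; adjusted p = 0.0615) and did not pass. It passed in 7 of 18 alternative settings, among them without Sirt5-/- replicate 1 (-1.69, adjusted p = 0.0220), without Sirt5+/+ replicate 3 (-1.28, adjusted p = 0.0248) and by the adjusted p of the authors' deposited table (0.0388). Erbb4 had 1.76, 2.71 and 13.5 CPM in Sirt5+/+ and 10.7, 3.34 and 1.79 CPM in Sirt5-/- livers, highest in the library of each genotype that is richest in mitochondrial counts, and its difference (-0.14 ± 0.87 SE, adjusted p = 0.915) changed sign with the scaling. Nrg2 was without counts (0) in each Sirt5+/+ liver and had 9, 30 and 28 in Sirt5-/- livers, and was too low to be tested.

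Genes that control the release of ligands were mostly higher in Sirt5-/- livers. Of 9 such genes 8 rose (88.9%, against 17.4% of all genes tested), among them the inhibitor Timp3, and none fell. Their median log2 change was 1.55 against -0.08 for all genes. This list and those below were chosen with earlier results of these data known. The summed macrophage, stellate cell and T cell markers were higher in the same livers (426 to 696 against 2152 to 2352 CPM for stellate cells and fibroblasts), and their part was not tested. Adam15, a membrane protease, rose from 6.69 ± 1.94 to 42.7 ± 6.92 CPM (SD, n = 3; edgeR, adjusted p = 0.00156), although it shares 18.2% of its 31-base words with other genes. Adam10, a main sheddase of Egf and Btc precursors, rose from 16.1 ± 6.56 to 46.9 ± 8.72 CPM (adjusted p = 0.0116). Rhbdf1 and Rhbdf2, which encode the iRhom partners of ADAM17, rose by 1.61 ± 0.24 and 1.05 ± 0.22 on the log2 scale (SE). Adam17 itself, the main sheddase of Hbegf, Tgfa, Areg and Ereg precursors, rose by 1.11 ± 0.32 (SE; adjusted p = 0.0265). Timp3, which rose by 2.44 ± 0.59 (SE), is an inhibitor of these proteases, and Adam17 and Timp3 were named after their values were seen. Without Sirt5-/- replicate 3 the number that rose was 2 of 9, with a median of 1.40, and Adam10 (adjusted p = 0.0538) and Rhbdf2 (0.0507) were among those that no longer passed. In that fit 1442 of all 15123 genes tested rose, against 2575 of 14801 with all libraries. With library totals 7 of the 9 rose, Rhbdf2 not among them (adjusted p = 0.0701).

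Of 28 adaptor and kinase genes 4 rose (14.3%) and 6 fell (21.4%), close to the 17.4 and 17.1% of all genes tested, with a median of -0.14. Gab2, a docking adaptor, rose from 3.73 ± 1.11 to 11.8 ± 1.73 CPM (SD, n = 3; edgeR, adjusted p = 0.00414), and Nras rose by 0.88 ± 0.21 on the log2 scale (SE). The kinase genes Akt2 and Araf fell by 1.31 ± 0.31 and 1.21 ± 0.28 (SE), with 13.3% of the words of Akt2 shared with other genes. With library totals 1 of the 28 rose, none fell and the median was 0.56, and without Sirt5-/- replicate 2 or 3 the counts were also 1 and 0, while 5 rose and 10 fell without Sirt5+/+ replicate 3. The calls of Nras, Akt2 and Araf ended without Sirt5-/- replicate 2 or 3 and with library totals (adjusted p 0.0530 to 0.586), and that of Araf also without Sirt5-/- replicate 1 (0.0558).

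Negative regulators of receptors and of RAS signalling were mixed. Of 22 genes of receptor turnover and braking, 8 rose (36.4%, against 17.4% of all genes) and 3 fell (13.6%, against 17.1%), with a median of 0.43. Spry1, encoding a Sprouty inhibitor, rose from 5.64 ± 0.475 to 24.31 ± 5.80 CPM (SD, n = 3; edgeR, adjusted p = 0.00182), with 23.1% of its words in other genes. Spry2, its relative, and Spred1, a related inhibitor of RAF activation, rose by 1.68 ± 0.44 and 1.37 ± 0.32 on the log2 scale (SE). Cbl, the ubiquitin ligase that marks EGFR for degradation, rose by 1.17 ± 0.28 (SE; adjusted p = 0.0137). The 3 that fell were Epn1 (-1.18 ± 0.38 SE), Lrig1 (-1.15 ± 0.38 SE) and Hgs (-0.88 ± 0.29 SE), named after their values were seen. Errfi1, which encodes an inhibitor of the receptor kinases and belongs to the 10 members, fell as well. Without Sirt5-/- replicate 2 the counts were 2 higher and 0 lower, and without Sirt5-/- replicate 3 they were 1 and 0. With library totals 4 rose and none fell, and with upper-quartile factors 9 rose and none fell. Leaving out Sirt5-/- replicate 2 or 3 ended the calls of Spry2 and Cbl (adjusted p 0.0649 to 0.0967), Spred1 did not pass without Sirt5-/- replicate 3 (0.0600), and leaving out Sirt5+/+ livers also ended the calls of Spry2 (replicate 1, 0.0559, or replicate 2, 0.0743) and Cbl (replicate 2, 0.0577).

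Genes known to be induced by ERK, among other signals, were mostly higher in Sirt5-/- livers. This list too was chosen with earlier results of these data known, so its share of higher genes is a description only. Of 16 such genes 14 rose (87.5%, against 17.4% of all genes) and none fell, with a median of 2.24, while Dusp4 (0.89 ± 0.60 SE) and Phlda1 (-0.14 ± 0.32 SE) did not pass and were named after their values were seen. Errfi1, described above as induced by receptor signalling, was not on this list and fell (log2 change -2.05). The share of higher genes therefore depends on which genes were listed. Ier3, an immediate early gene, rose from 2.71 ± 0.854 to 26.2 ± 7.31 CPM (SD, n = 3; edgeR, adjusted p = 0.00146), and Plaur, the urokinase receptor gene, rose from 5.79 ± 2.71 to 48.0 ± 6.19 CPM (adjusted p = 0.00167). Ccnd1, the cell cycle gene of cyclin D1, rose from 20.2 ± 0.209 to 110.6 ± 20.0 CPM (adjusted p = 0.00146), and Dusp5, an ERK phosphatase, rose by 3.07 ± 0.39 on the log2 scale (SE). Sequence shared with other genes was 22.3% for Ccnd1 and 21.2% for Dusp5. Between 11 and 14 of the 16 rose under each scaling alternative and without Sirt5+/+ replicate 3 or Sirt5-/- replicate 2 or 3. Markers of macrophages, T cells and fibroblasts rose in the same livers, and their part in this result was not tested.

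**Figure D4:**
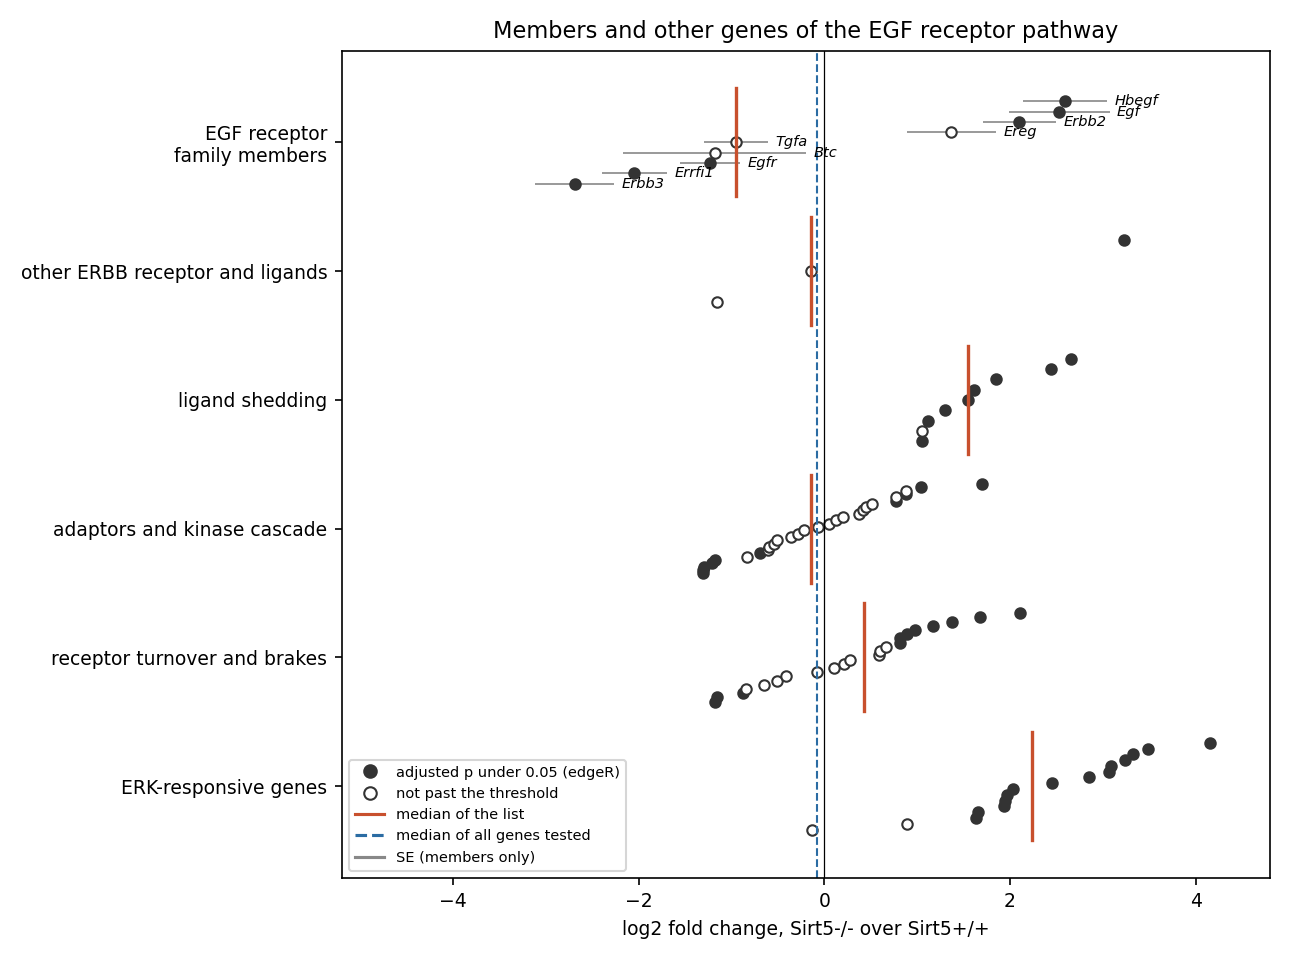
Log2 fold change of Sirt5-/- over Sirt5+/+ livers (horizontal axis) for the 9 tested members, with SE bars, and for the genes of 5 other lists of the pathway, 1 point a gene, filled where the adjusted p was under 0.05. Members lie on both sides of 0, ligand shedding (median 1.55) and ERK-responsive genes (median 2.24) lie mostly to the right, and adaptors and kinases (median -0.14) spread around the median of all genes (dashed, -0.08).

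Across these 5 lists 35 of 78 tested genes rose (44.9%, against 17.4% of all genes) and 9 fell (11.5%, against 17.1%), with a median of 0.71. The numbers that rose were 23 without Sirt5-/- replicate 2 and 16 without Sirt5-/- replicate 3. Among all genes tested, 1535 of 15147 and 1442 of 15123 rose in these 2 fits. The ErbB signalling pathway of the KEGG annotation in the deposited table, a broader set chosen after its values were seen, had 82 tested genes of which 22 rose (26.8%) and 12 fell (14.6%), beside 17.4 and 17.1% of all genes tested, with a median of 0.07. Without the members and the Camk2 genes it had 70 tested genes, of which 18 rose (25.7%) and 9 fell (12.9%).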

How the data were processed

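Expected counts (estimated reads per gene) and TPM were used as deposited by the authors, in 1 table of 55536 genes. HISAT2 2.1.0, RSEM 1.3.1 and DESeq2 1.24.0 are named per the submitters' processing notes, and their roles, options and genome build are not given in the sources used here. All gene IDs and names are in GENCODE M21, so coordinates are those of GRCm38. The log2 fold changes and p-values of the authors' deposited table served only as an alternative. Counts were rounded, filtered with edgeR's filterByExpr (minimum count 10, total 15), scaled with TMM factors (0.396 to 1.68) and tested two-sided with genotype as the only term (edgeR 4.0.16, quasi-likelihood F test). Benjamini-Hochberg adjustment ran over 14801 genes, with a threshold of 0.05. The SE is the log2 fold change over the square root of F, and the common biological coefficient of variation was 0.373. TPM and the pathway annotation were used for composition, implied length and list membership.

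Log2 CPM relative to markers used a prior count of 2 and an exact permutation test (20 assignments). Mean transcript length came from the ratio of counts to TPM, scaled in each library on single-transcript genes with at least 100 counts. Shared sequence is the percent of a gene's 31-base words found in other GENCODE M21 genes. Named genes were Sirt5, all members, up to 4 genes with the smallest p in each of 5 pathway lists, and the 3 tested genes nearest to Egfr by log2 CPM (mean of at least 1 CPM). Members, lists and tests were chosen with earlier results of these data known. Alternatives were scaling by library totals, by upper-quartile factors or by DESeq2 size factors, testing all genes or only those with a mean of 50 counts and 1 CPM in 3 libraries, the DESeq2 1.42.0 test, limma-voom (limma 3.58.1), a replicate block, each library left out in turn, the library richest in mitochondrial counts of each genotype left out, mitochondrial genes removed, their share as a covariate, a prior count of 0.5, and the authors' values. The edgeR test was also run on simulated data in which a small part of the genes changed, in random directions. That run did not probe the dependence on scaling described here. No 2 libraries held identical values.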

Additional observations from a re-analysis of the deposited data

How the results depend on the processing

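For the 9 tested members, 141 of the comparisons with an alternative kept direction and side of the threshold, 12 came to pass, 5 no longer passed and 1 changed sign. Erbb2, Erbb3, Hbegf and Egf passed in every alternative run for them, and Egf, Ereg and Btc could not be run under the stricter filter. Btc changed sign with the mitochondrial share as a covariate (1.68). The labels do not say whether the replicate numbers pair the livers. Correlations of deviations between same-numbered libraries were -0.190, 0.115 and -0.204, which cannot decide it. With the number as a block Egfr missed the threshold (adjusted p = 0.0566), 1665 genes were lower against 2525, and 4 pathway genes were lower against 9. Leaving out 1 library gave 1442 to 3990 higher genes against 2575 and 1091 to 3656 lower genes. In such fits 3 to 4 members were higher and 2 to 4 lower, and 16 to 39 pathway genes were higher and 0 to 15 lower. Without the library richest in mitochondrial counts of each genotype 3905 genes were higher and 15 pathway genes lower. Library totals left 325 lower genes, 1 lower member (Erbb3) and 0 lower pathway genes, and upper-quartile factors 4 lower pathway genes. Erbb4 had no stable sign, at 0.73 with library totals, 0.0249 with upper-quartile factors, 0.16 with limma-voom, 0.0606 with the block, 0.25 without the libraries richest in mitochondrial counts and -1.18 to 1.26 with 1 library left out. Relative to hepatocyte markers Errfi1 ranged from -0.19 to 0.11 with 1 library left out, and its 2 changes of sign were the only ones among 63 such comparisons. The cause of these changes was not tested. Depth limits Areg, Btc, Ereg and Egf, whose Sirt5+/+ values rest on 38 counts or fewer per library. Erbb2 and Hbegf were also low there, with 47, 45 and 6 counts and 32, 51 and 39 counts in Sirt5+/+ replicates 1 to 3.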
